A study of Glycine max with 8 samples.

Results

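Places where several WOX9-like sites lay close together on a soybean chromosome are described here. The members were chosen by peak calls and positions only. Peaks of different libraries were joined into a region where they had 50% or more of the shorter one in common, and a region called in all 4 libraries is called a shared region. A cluster is a run of 4 or more shared regions in which each midpoint lies within 5000 bp of the next. Of 75046 regions in all, 27270 were shared and 27095 of these lay on the 20 chromosomes. The rule found 961 clusters, which hold 4653 shared regions, 17.2% of those on chromosomes. The other 22442 shared regions are the comparison used below.

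The antibody was a rabbit polyclonal against a peptide of GmWOX9-like, and the chromatin came from whole seeds of the cultivar Williams 82, grown in a greenhouse. The globular group was seeds of 1.0 to 1.5 mm, which hold globular-stage embryos. The heart group was seeds of 1.7 to 2.1 mm, with embryos at the heart stage, when cotyledons start to form. Each group had 2 ChIP libraries, each with its own peak list, and 2 input libraries, which were not analysed here. All groups share the cultivar, and no transgene or treatment other than fixation with formaldehyde is named. A whole seed also contains endosperm and seed coat, so a site cannot be placed in any of these tissues. The labels do not say whether replicates are separate harvests, and their spread may be technical.

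WOX9-like is named after WOX9 of Arabidopsis, a WUSCHEL-related homeobox protein. These plant homeodomain proteins bind DNA and regulate transcription, and in Arabidopsis WOX9 is known for its part in early embryo patterning and in keeping cells dividing. Several sites of 1 factor close together on the DNA are known from many organisms as homotypic clusters. Such clusters may lie in regulatory DNA of a single gene or of several neighbours. The build of the files is not named, so no cluster was assigned to a gene and no sequence is shown.

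The lists hold 44581 to 60537 peaks per library, and read depth is unknown. Fold enrichment, the authors' value for each peak, is not on the same scale in different lists. Strength is therefore also given as a rank from 0 to 100 among the 27095 shared regions, taken in each library separately, with 100 the highest fold. Globular replicate 1 stood apart: over the clustered regions its rank had a correlation of 0.57 with either heart library and 0.69 with globular replicate 2, against 0.80 for globular replicate 2 with either heart library and 0.96 between the heart libraries (Pearson, 4653 regions that share libraries, given as a description). The same values over the other shared regions were 0.51, 0.65, 0.76 and 0.95.

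Most clusters were short. Runs of 4 made up 543 of the 961 clusters and runs of 5 made up 222, together 79.6%. At the long end, 51 clusters held 8 or more regions, 450 regions in all, and 8 held 10 or more. The count of runs fell at each added region up to 11: there were 11212 regions alone, 3551 runs of 2, 1376 runs of 3, 94 of 6, 51 of 7, 27 of 8 and 16 of 9. Clusters spanned a median of 9851 bp, from 3483 to 32845 bp, and 10.2 Mb in all. At the limit on run length, runs of 3 had a median step between midpoints of 2269 bp and runs of 4 of 2341 bp. At the limit on distance, 682 neighbouring shared regions were 4500 to 5000 bp apart and 593 were 5000 to 5500 bp apart. Neither limit fell in a gap of the data, and the number of clusters moved with both, to 225 with steps up to 2500 bp and 1837 with steps up to 10000 bp. It was 1690 when the call in globular replicate 1 was not required.

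**Figure D1:**
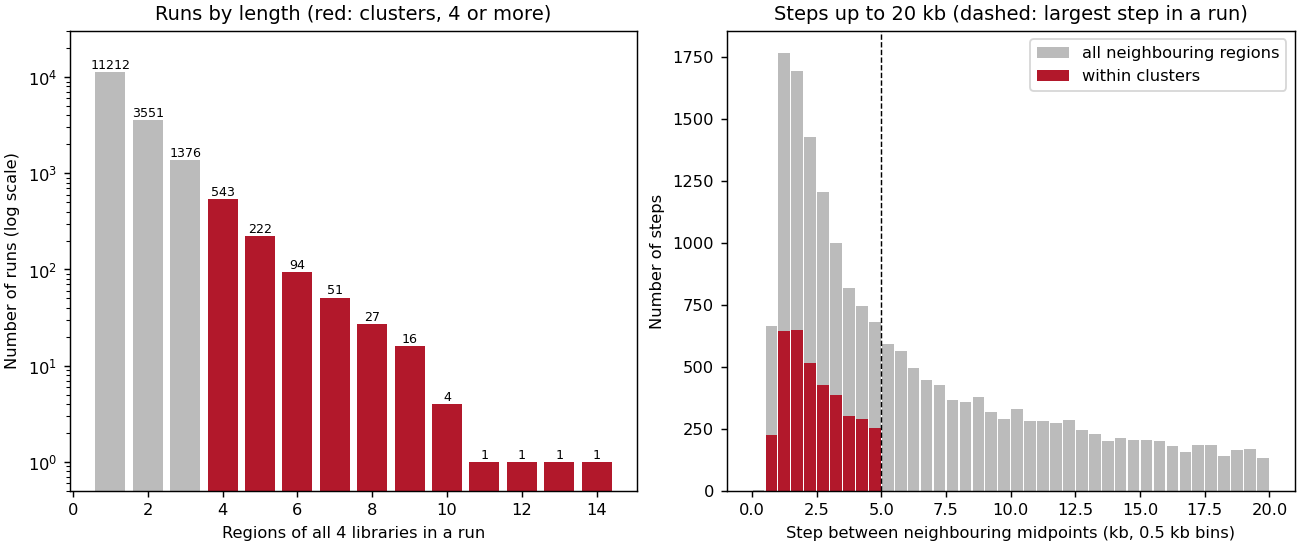
Left, the number of runs (log scale) by the number of shared regions in the run, with clusters in red: 543 runs hold 4 regions and 1 run holds 14. Right, the number of steps between neighbouring midpoints in bins of 0.5 kb up to 20 kb, for all neighbouring shared regions (grey) and within clusters (red): the red bars are highest between 1 and 2 kb, and the grey bars pass 5 kb without a break.

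Inside clusters, neighbouring sites were typically 1 to 3 kb apart. The median step between midpoints was 2286 bp, with quartiles of 1533 and 3380 bp, and 41.2% of the 3692 steps were 2000 bp or less. The rule caps each step at 5000 bp, which limits this range. Among all neighbouring shared regions, steps of 1000 to 1500 bp (1765) and 1500 to 2000 bp (1691) were also the most frequent, so this spacing is not particular to clusters. Between the edges of neighbouring regions lay a median of 1287 bp. In 526 of the 3692 cases (14.2%) the gap was under 300 bp, and in 32 the regions overlapped. Some neighbours may thus be parts of 1 wide site that the caller divided; with regions less than 300 bp apart joined first, 719 clusters were found. A cluster was not a solid block of signal. Peaks covered a median of 29.0% and 36.5% of the cluster's span in the globular libraries, and 43.9% and 37.8% in the heart libraries.

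Clusters were found on every chromosome. Chromosome 10 had the highest share of its shared regions in clusters, 327 of 1432 (22.8%). It was followed by chromosome 11 with 272 of 1334 (20.4%) and chromosome 13 with 406 of 2000 (20.3%), which also held the most clusters of any chromosome, 85. The lowest shares were on chromosome 4 with 169 of 1275 (13.3%), chromosome 16 with 118 of 884 (13.3%) and chromosome 19 with 172 of 1226 (14.0%). Across the 20 chromosomes the share had a Spearman correlation of 0.71 with the number of shared regions per Mb, given as a description since both rest on the same regions.

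Clusters lay toward chromosome ends more often than other shared regions did. Of the clustered regions, 76.2% were in the outer 20% at either end, against 68.6% of the other shared regions, and the clustered share was the higher on 19 of 20 chromosomes. On chromosome 14 all 38 clusters lay in the outer parts, while on chromosome 13 this was true of 29 of 85 (34.1%). Of all shared regions, 83.9% on chromosome 14 and 36.6% on chromosome 13 lay there. With each chromosome's extent divided into 10 equal parts, the share of shared regions in clusters was 20.4% in the first part, 7.31% in the seventh and 18.2% in the last. The extent is counted up to the last base with a peak. Shared regions of any kind were also densest at the ends, with 5353 in the first part, 834 in the seventh and 5511 in the last. A rule on distance makes clusters more likely where regions are dense. Whether clusters favour the ends beyond this density was not tested.

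Density of sites and clustering went together, as the rule makes likely. In the 100 kb around a clustered region there was a median of 10 shared regions, and around another shared region a median of 6. Among fixed windows of 100 kb, a clustered region was found in 15 of 2636 windows with 1 to 3 shared regions (0.569%) and in 283 of 888 with 7 to 9 (31.9%). Among windows with 13 to 21 shared regions it was found in 166 of 184 (90.2%). How many clusters the regional density alone would give was not tested. Some clusters stood by themselves: in 50 of 961, the 100 kb centred on the cluster held no shared region beyond its own.

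**Figure D2:**
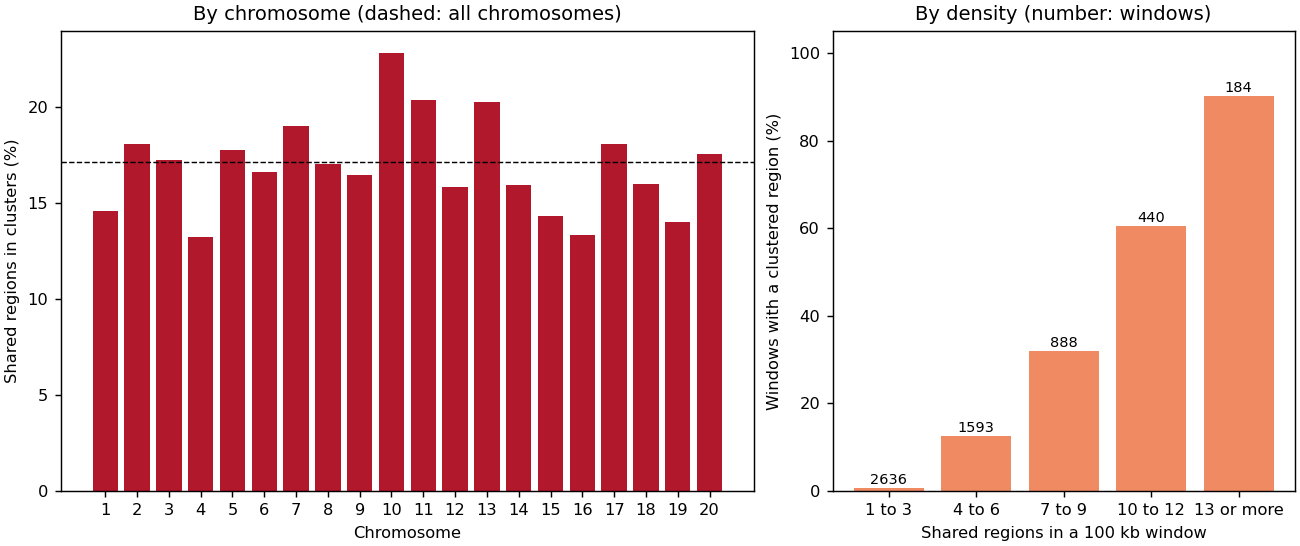
Left, the percent of shared regions that lie in clusters on each of the 20 chromosomes, with the value over all chromosomes (17.2%) as a dashed line: chromosome 10 reaches 22.8% and chromosome 4 stays at 13.3%. Right, the percent of fixed 100 kb windows that hold a clustered region, by the number of shared regions in the window, with the number of windows above each bar: it rises from 0.569% to 90.2%.

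Sites in clusters had slightly higher folds than other shared sites, in all 4 libraries. The rule did not use fold enrichment, and both classes were called in every library. In globular replicate 1 the median fold was 6.11 in clusters and 5.74 elsewhere. For globular replicate 2 these medians were 4.94 and 4.52. The values were 8.98 and 8.22 in heart replicate 1, and 7.61 and 6.96 in heart replicate 2. The distributions overlapped widely: in globular replicate 1 the quartiles were 4.51 and 8.92 in clusters and 4.34 and 8.22 elsewhere.

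Taken in pairs of a clustered and another shared region, the clustered region had the higher fold in 53.6% and 55.6% of pairs in globular replicates 1 and 2. The shares were 54.3% and 54.1% in the heart libraries. A share of 50% would mean no difference in order. On single chromosomes the share was above 50% on 19 and 20 of 20 chromosomes in the globular libraries and on 20 and 19 in the heart libraries, with the lowest at 47.5% and the highest at 60.1%. The share averaged 54.6% ± 1.47 (SD, n = 2) over the globular libraries and 54.2% ± 0.0933 (SD, n = 2) over the heart libraries. This stage difference of 0.376 points was smaller than the spread between the globular replicates (p = 1, exact permutation test, two-sided; with 2 against 2 libraries the smallest possible p is 0.333).

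Strength rose with the length of the run up to 5 regions. Regions alone had a median rank of 47.4 and 45.0 in the globular libraries and of 46.2 and 46.4 in the heart libraries. Runs of 5 had medians of 54.5, 56.4, 56.8 and 55.5 in the same order. Beyond 5 the medians did not move alike. Runs of 7 had 59.2 and 57.7 in the globular libraries and 56.1 and 56.5 in the heart libraries. In runs of 8 or more the median rank was 55.2 and 58.3 in the globular libraries and 52.2 and 54.4 in the heart libraries. The heart medians were then below those of runs of 5, and that of globular replicate 1 was below its runs of 7. Only in globular replicate 2 did the longest runs have the highest median rank.

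**Figure D3:**
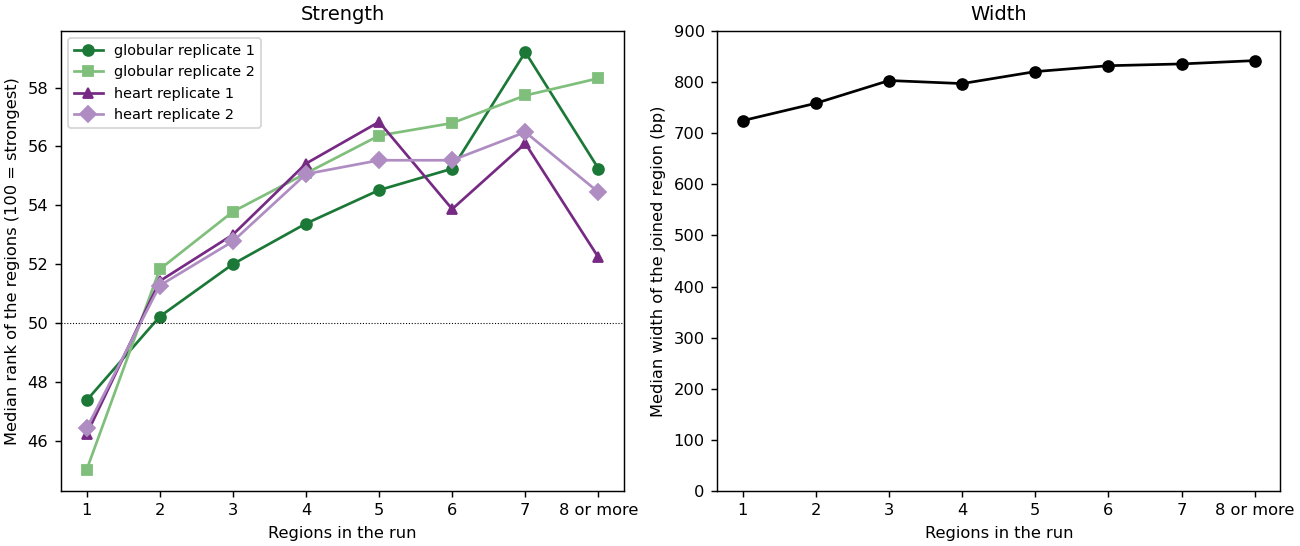
Left, the median rank of shared regions (100 is the strongest) by the number of regions in their run, 1 line per library: all 4 lines rise from 45.0 to 47.4 for lone regions to 54.5 to 56.8 in runs of 5. From runs of 7 to runs of 8 or more every line but that of globular replicate 2 goes down. Right, the median width of the joined region in bp, which goes from 725 bp for lone regions to 842.5 bp in runs of 8 or more.

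Clustered regions were also wider. Joined over the libraries, their median width was 815 bp, against 748 bp for other shared regions. The strongest peak of a region had a median width of 494 bp and 467 bp, clustered and other, in globular replicate 1. In globular replicate 2 it was 616 bp and 560 bp, in heart replicate 1 it was 722 bp and 664 bp, and in heart replicate 2 it was 618 bp and 569 bp. Regions of 2000 bp or more made up 4.21% of the clustered and 3.40% of the other shared regions. Summits were placed alike: with 1 peak per library, the 4 summits of a region lay within a median of 71 bp in clusters and 72 bp elsewhere.

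The strongest sites lay in clusters more often than the rest, given here as a count with no test. Of the 1611 shared regions that each library placed in its top 10%, 411 (25.5%) were clustered, against 16.6% of the remaining shared regions. These 411 lay in 322 clusters, so most clusters had none, 76 had 2 or more and 2 had 4 or more. Of the 10 shared regions with the best place by the worst of their 4 list percentiles, 6 lay in clusters. A pair of these, on chromosome 18 at 57415626 to 57416657 and 57421110 to 57425436, belonged to the same cluster of 4.

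Most of the variation in strength lay among members of the same cluster. The share of the variance of rank that lay between clusters was 2.60% and 6.15% in the globular libraries and 4.82% and 4.68% in the heart libraries. In runs of 3 the share was 2.68%, 8.21%, 4.59% and 4.88% in the same order, and in runs of 2 it was 4.98%, 12.5%, 10.2% and 9.29%. The highest fold of a cluster was a median of 2.82 and 2.76 times its lowest in the globular libraries and 3.11 and 3.05 times in the heart libraries. A typical cluster thus held sites of unequal strength. The ratio was not computed for sets of other shared regions, so it is not shown to be particular to clusters.

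The libraries often placed the strongest site of a cluster on the same region. Both heart libraries did so in 824 of 961 clusters (85.7%) and both globular libraries in 574 (59.7%). Across the stages, globular replicate 2 shared its strongest region with heart replicates 1 and 2 in 700 (72.8%) and 698 (72.6%) clusters, and globular replicate 1 in 575 (59.8%) and 573 (59.6%). All 4 libraries had the same strongest region in 461 clusters (48.0%). No such count was made for sets of other shared regions.

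Regions inside a cluster outranked those at its ends in 3 of the 4 libraries. The 2731 inner regions had a median rank of 58.3 in globular replicate 2, 57.6 in heart replicate 1 and 57.4 in heart replicate 2. For the 1922 end regions the medians were 53.8, 52.2 and 51.8. In globular replicate 1 the end regions had the higher median, 55.1 against 54.0. Taken in pairs, the inner region had the higher fold in 50.2% of pairs in globular replicate 1 and in 52.7% to 53.2% in the other libraries. Regions were pooled over clusters and not compared within each one. Longer clusters give more inner regions, so place in the cluster was not separated from its length.

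The longest cluster lay on chromosome 15 from 5920016 to 5945571 and held 14 shared regions within 25556 bp, in steps of 868 to 4814 bp. Folds ranged from 3.62 to 18.2 and from 2.41 to 14.5 in the globular libraries. They went from 3.65 to 25.1 and from 2.84 to 23.5 in the heart libraries. Where 2 or 4 values are given here and below, replicate 1 comes before replicate 2 and globular before heart. Its highest site was region 10 of 14 (5933929 to 5936331), with a fold of 18.2 and 14.5 in the globular and 25.1 and 23.5 in the heart libraries. The second region (5921448 to 5922328) had folds of 14.7, 11.1, 21.1 and 15.4 in the same order. These were the 2 members with a rank of 90 or more in every library. The eleventh region (5939525 to 5940363) ranked 69.6 and 61.7 in the globular libraries and 14.3 and 14.4 in the heart libraries, and the next (5941399 to 5941892) ranked 47.8 and 50.8 against 13.8 and 16.3. Sites that kept their rank in both stages and sites that did not therefore stood within 10 kb of each other.

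The second longest, on chromosome 20 from 38837241 to 38870085, held 13 regions within 32845 bp. Its first 4 regions ranked at 77.7 or more in every library. The second (38841818 to 38843437) had a fold of 16.9 and 15.9 in the globular libraries and of 35.4 and 31.1 in the heart libraries. The third (38843961 to 38844781) had 20.4, 13.9, 27.2 and 25.9. At the far end the picture was different. The last region (38869365 to 38870085) had a fold of 21.1 and a rank of 98.8 in globular replicate 1, but ranks of 45.3 in globular replicate 2 and 9.44 and 2.80 in the heart libraries. Its neighbour (38867202 to 38867855) ranked 92.7 and 63.7 in the globular libraries and 1.45 and 0.199 in the heart libraries. Over its 13 regions, 4 ranked higher in both globular libraries than in both heart libraries, and 6 the other way round, where 23.3% and 30.4% of all shared regions did so.

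Chromosome 11 held the third longest, 12 regions from 7413214 to 7439542. Its last region (7438561 to 7439542) was near the top of every list, with a fold of 23.3 and 17.6 in the globular and 30.9 and 26.9 in the heart libraries. The region just before it (7437390 to 7438381), 179 bp away, was near the bottom in globular seeds, with folds of 2.97, 2.72, 5.84 and 5.37. The eighth region (7427922 to 7428739) was strong in 1 library only, with a fold of 19.3 and a rank of 98.1 in globular replicate 1 and ranks of 35.6, 13.8 and 30.6 in the others. A second cluster of chromosome 11, from 4040906 to 4062682, held 10 regions and no other region of any class in its span. Its median ranks were 87.0, 81.0, 77.6 and 81.6, the highest of the 8 longest clusters in each library.

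The remaining 4 of the 8 longest held 10 or 11 regions. The one with 11 was found on chromosome 2 (3202084 to 3229201). Those with 10 were on chromosome 10 (44358879 to 44383418), on chromosome 5 (37524274 to 37551232), and on chromosome 12 (38465857 to 38486981). Median ranks in these clusters ran from 43.9 to 79.2 over the libraries. Length did not go with uniform strength: the chromosome 2 cluster reached a fold of 17.6 in globular replicate 1 and 20.8 in heart replicate 1 at its first region, while its ninth region had 3.36 and 4.89.

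**Figure D4:**
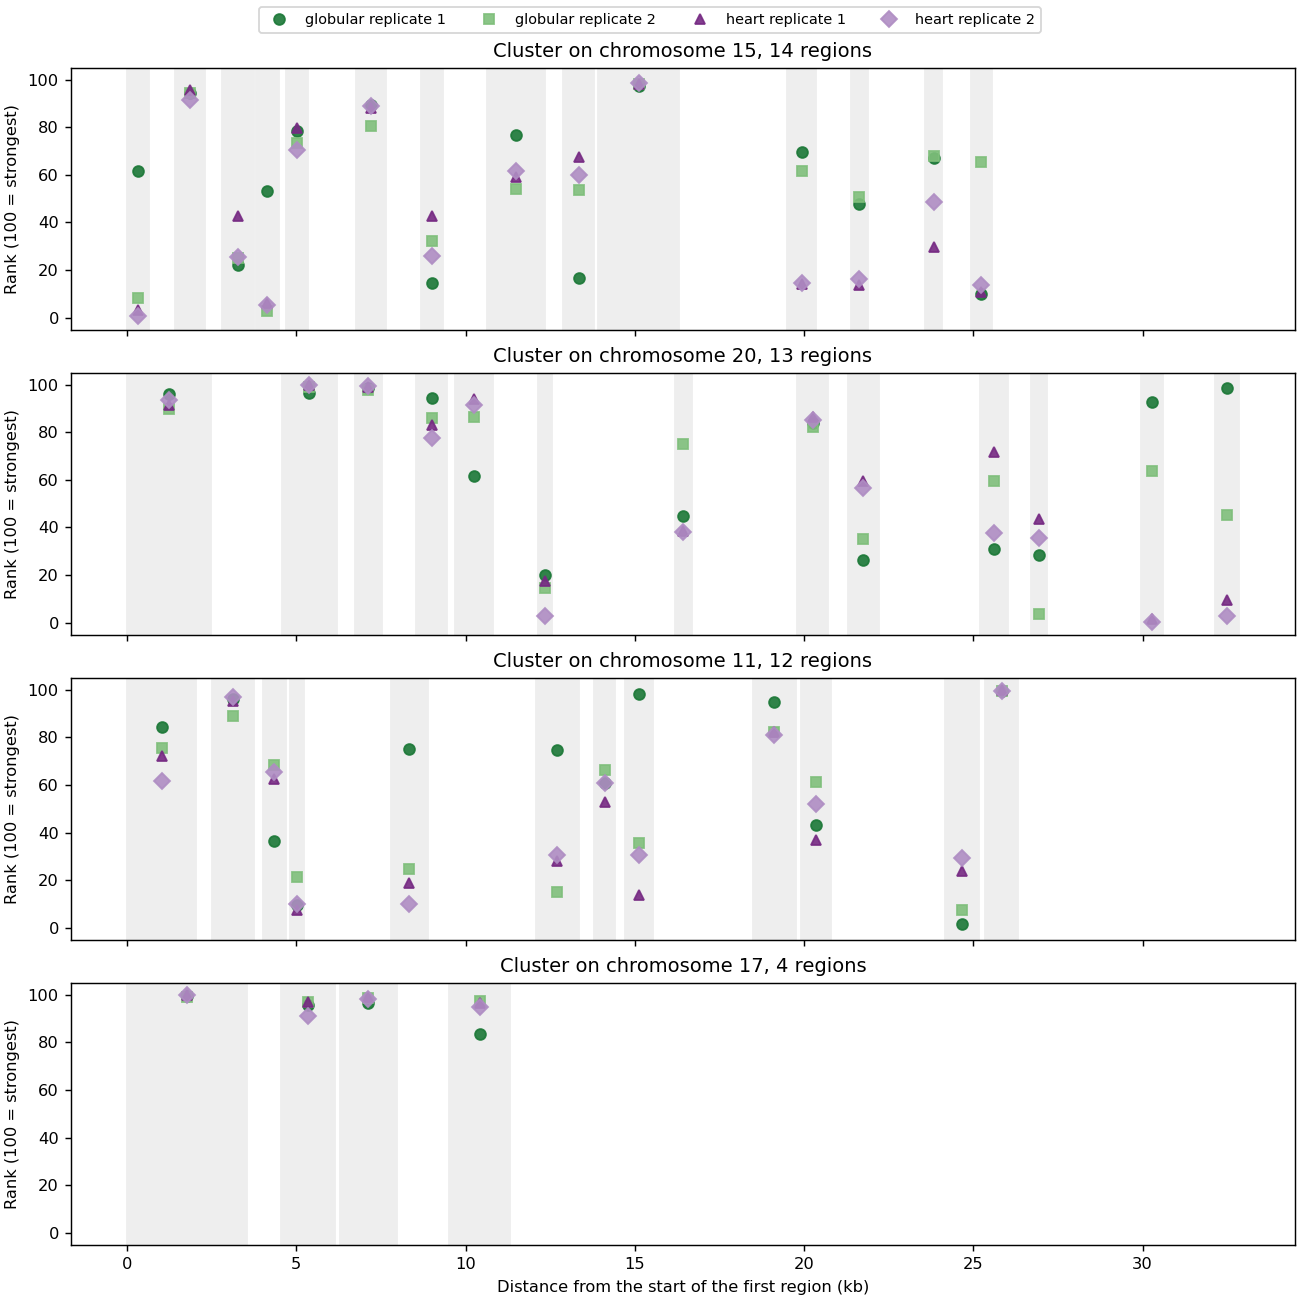
The 3 longest clusters and, at the bottom, the cluster with the best median place in the 4 lists (chromosome 17). Each grey band is a shared region, placed by its distance in kb from the start of the cluster, and the symbols give its rank in the 4 libraries (100 is the strongest): strong and weak regions stand side by side in the long clusters, whereas all 4 regions on chromosome 17 rank at 83.6 or more.

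Of the 8 clusters with the best median place of their members, 5 still held a region that ranked below 50 in some library. The first of the 8 was strong throughout. It lay on chromosome 17 from 3177438 to 3188758, with 4 regions within 11321 bp. Its first region (3177438 to 3180972) was 3535 bp wide with folds of 23.6 and 16.4 in the globular and 31.7 and 28.2 in the heart libraries. The lowest folds of the cluster were 10.1 and 12.7 in the globular and 22.7 and 15.0 in the heart libraries. Heart replicate 1 had peaks over 78.2% of the span and globular replicate 1 over 45.6%.

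The second, on chromosome 6 from 21473955 to 21486611, held 5 regions and was alone in its 100 kb. Its first region (21473955 to 21475949) had a fold of 18.7, 21.7, 31.3 and 30.4, and its last (21485850 to 21486611) had 2.78, 3.60, 5.65 and 4.59. On chromosome 11 from 3237790 to 3249622, the first 3 of 5 regions had ranks of at least 93.4 in every library, and the next (3244114 to 3244931) ranked 46.8, 2.74, 14.3 and 10.7. Chromosome 5 (32957872 to 32964769) held 5 regions within 6898 bp, of which the last 3 had folds of 13.2 to 17.4 in globular replicate 1 and 21.1 to 27.4 in heart replicate 1.

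Chromosome 13 held the next 2 of these strong clusters. The cluster from 34477257 to 34486258 had 6 regions, with folds of 6.08 to 18.5 in globular replicate 1 and 8.41 to 22.8 in heart replicate 1. The cluster from 23026693 to 23041436 also had 6, and its last region (23039803 to 23041436) had a fold of 33.2, 22.8, 36.1 and 34.0. On chromosome 15, the middle region (1008056 to 1009882) of a cluster of 5 (1004973 to 1015335) had folds of 37.6, 25.01, 32.9 and 31.7, and the last (1014922 to 1015335) had 5.02, 4.16, 4.51 and 5.28. The eighth was a cluster of 4 on chromosome 7 (41529615 to 41536606), with median ranks of 91.4 and 88.6 in the globular and 86.5 and 84.7 in the heart libraries.

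The most closely packed clusters were small. On chromosome 14, 4 regions lay within 3483 bp (7335594 to 7339076), with a mean step of 947 bp. On chromosome 9, 4 lay within 3633 bp (1642461 to 1646093), and on chromosome 4, 4 lay within 3622 bp (49037662 to 49041283). In the chromosome 9 cluster the gaps between regions were 26 to 172 bp, and peaks of heart replicate 1 covered 82.9% of the span. Folds there ran from 3.40 to 10.5 in globular replicate 1 and from 5.08 to 20.8 in heart replicate 1, so closely packed sites were unequal too.

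Clustered sites were higher at 1 stage about as often as shared sites in general. A region was counted as higher at a stage when its ranks in both libraries of that stage lay above its ranks in both libraries of the other. Of the 4653 clustered regions, 1126 (24.2%) were higher in globular seeds and 1363 (29.3%) in heart seeds. Over all 27095 shared regions these shares were 23.3% and 30.4%. In sum, 53.5% of the clustered regions and 53.7% of all shared regions had ranks that did not overlap between the stages, so the clustered share is near the background.

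Many clusters held regions of both directions. In 447 of 961 clusters (46.5%) some regions were higher in globular seeds and others in heart seeds. All regions were higher in globular seeds in 4 clusters and all were higher in heart seeds in 13. Since 23.3% and 30.4% of all shared regions were higher at these stages, any set of 4 or more regions can mix directions by its size alone. Sets of other shared regions were not counted, so whether these numbers are particular to clusters is not known. The share of variance between clusters was 6.34% for the difference between the mean globular and mean heart rank, against 9.03% in runs of 3. Between single libraries of different stages it was 4.32% for globular replicate 1 minus heart replicate 1. For globular replicate 2 minus heart replicate 2 it was 7.81%. For the difference between the globular replicates, which share a stage, it was 3.66%, and for the heart replicates 0.563%. By their median ranks, 245 clusters (25.5%) were higher in both globular libraries and 286 (29.8%) in both heart libraries. In the 1376 runs of 3 the corresponding shares were 24.5% and 29.1%.

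The 3 clusters with the largest shift toward globular seeds were picked for that shift, so their values are a description. On chromosome 5 from 2579475 to 2591098 the median rank of 5 regions was 78.6 and 61.6 in the globular and 20.7 and 13.7 in the heart libraries. Its last region (2590450 to 2591098) had folds of 18.5 and 5.32 in the globular and 4.13 and 3.62 in the heart libraries. The third region (2583125 to 2584000) did not share the shift, with ranks of 82.7, 84.4, 86.9 and 86.3. On chromosome 7 from 4450976 to 4457282 the medians of 4 regions were 71.2 and 57.1 against 13.6 and 19.4. On chromosome 17 from 8901467 to 8921278 those of 8 regions were 80.3 and 36.4 against 10.7 and 13.9. In the last, globular replicate 2 was nearer to the heart libraries than to globular replicate 1.

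Among the 3 clusters shifted most toward heart seeds, all 12 regions were higher in both heart libraries, as were 30.4% of all shared regions. These clusters were picked for their shift, so the count is a description. In the 3 clusters shifted toward globular seeds, 3 of 5, 3 of 4 and 4 of 8 regions were higher in both globular libraries. Of all shared regions, 23.3% were. The cluster on chromosome 14 from 4405407 to 4409983 held 4 regions within 4577 bp, with median ranks of 30.6 and 36.9 in the globular and 80.2 and 82.96 in the heart libraries. Its last region (4409422 to 4409983) had folds of 6.07 and 3.85 in the globular and 15.4 and 15.3 in the heart libraries. A cluster on chromosome 20 (39004400 to 39013266) had medians of 17.4 and 19.2 against 63.2 and 60.0, yet its first region (39004400 to 39007081) was strong in all, with ranks of 97.9, 96.4, 98.2 and 98.6. The cluster on chromosome 10 (2463535 to 2474480) had medians of 9.36 and 30.7 against 62.0 and 61.3. Here, as in the clusters shifted toward globular seeds, the groups of 2 libraries do not overlap in their medians, which is how these clusters were picked.

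**Figure D5:**
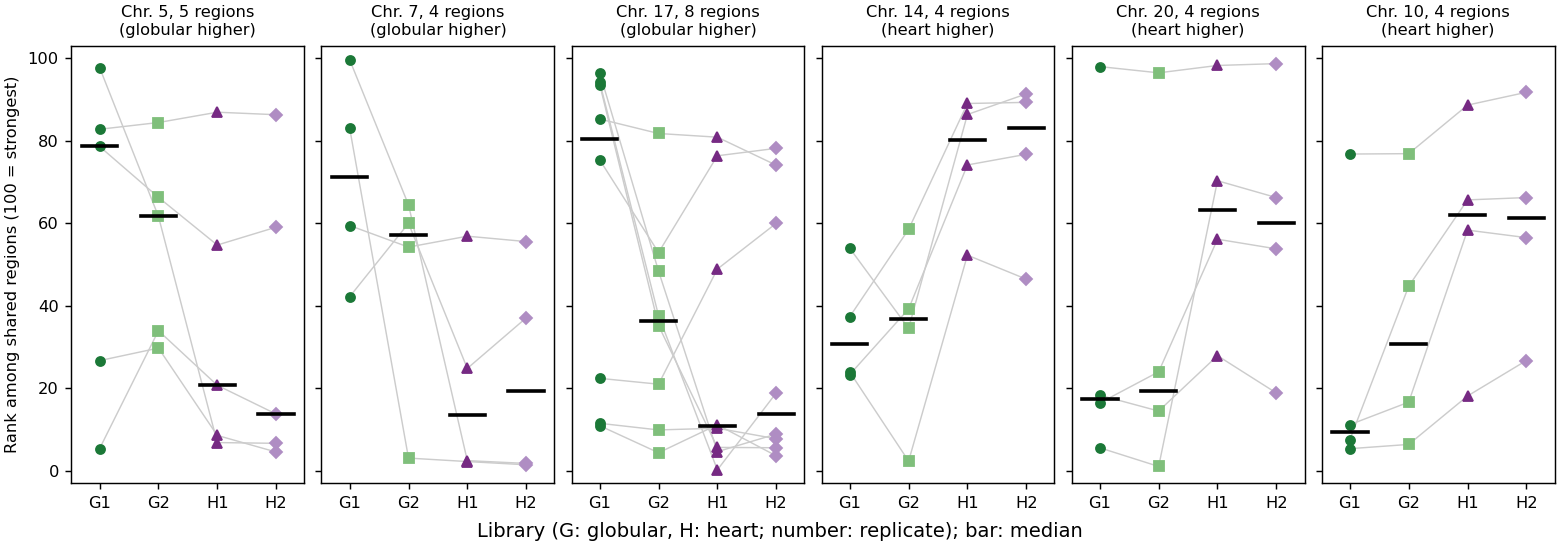
Rank (100 is the strongest) of each shared region in globular replicates 1 and 2 (G1, G2) and heart replicates 1 and 2 (H1, H2), for the 3 clusters shifted most toward each stage. Points are regions, grey lines join the same region and black bars are medians: the chromosome 14 cluster goes from medians of 30.6 and 36.9 to 80.2 and 82.96, while single regions in other clusters stay level.

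Regions called in fewer than 4 libraries were not used by the rule and lay about as often near clustered as near other shared regions. Within 5000 bp of a clustered region there was a mean of 1.28 such regions, and the same mean of 1.28 near other shared regions. The classes differed. A region called in both heart libraries and no globular library was near 19.7% of the clustered and 21.9% of the other shared regions. A region of the globular libraries alone was near 7.50% and 7.99%. A region of all libraries but globular replicate 1 was near 21.4% and 19.3%. In all, 1107 regions of fewer than 4 libraries had their midpoint in a cluster's span, and 370 of the 961 clusters had none. Per kb, spans of clusters held 0.872 times as many of them as the 5000 bp on either side of other shared regions. These stretches are unlike: a span begins and ends on a shared region and holds at least 4, which leaves less room for other regions.

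Stage-only regions rarely formed runs of their own. The same rule found 20 runs among the 9212 heart-only regions on chromosomes, with 81 regions (0.879%) and at most 5 in a run. Among the 3448 globular-only regions it found none, the longest run being 3. These classes are smaller than the 27095 shared regions, and fewer points give fewer runs, so the counts are not a comparison of their tendency to cluster. Applied to the peaks of each library alone, the rule put 32.5% and 35.9% of peaks of globular replicates 1 and 2 and 45.8% and 40.7% of peaks of heart replicates 1 and 2 into runs.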

How the data were processed

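The tools were Bowtie 0.12.7, SAMtools 0.1.18 and MACS2, per the submitters' processing notes. Their roles and settings, the build, each library's control, the treatment of duplicates and the threshold are not stated in the sources used. The authors deposited 1 list per ChIP library in the narrowPeak layout, so replicates were not pooled. The deposited fold enrichment is a ratio for each peak, to a background that no label describes. The deposited −log10 p and −log10 q are also given for each peak, and the lowest −log10 q was 2.00 to 2.04. The deposited score was not used. The peak names of globular replicate 2 hold the words BR1 and Input, which no label explains.

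Regions, runs and ranks were computed with Python 3.11.15, numpy 2.4.6, scipy 1.17.1 and pandas 2.3.3. Where a library had several peaks in a region, the highest fold was used. Positions count from 1. Scaffolds were left out. The steps were tested on simulated data with planted clusters. The members and lists were chosen with earlier results of these data known. Named clusters are the 8 with most regions, the 8 with the best median over members of the worst list percentile, the 3 with the largest shift toward each stage and the 3 most closely packed. Stages were compared by an exact permutation test over libraries, and regions of a library were not treated as replicates.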

Additional observations from a re-analysis of the deposited data

How the results depend on the processing

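Numbers of clusters depend on the limits that define them. They were 961 as reported, 225 with steps up to 2500 bp, 1837 with steps up to 10000 bp, 2337 with runs of 3 or more, 418 with runs of 5 or more, 585 with summits within 100 bp as the rule for sharing, 622 with the best 40000 peaks of each list, and 989 to 1690 without 1 library each, the highest without globular replicate 1. The share of shared regions in clusters was 17.2% as reported and, in the same order, 3.66%, 37.6%, 32.4%, 9.16%, 11.9%, 13.1% and 17.5% to 25.02%. It was 21.6% with gaps between edges, 15.2% with −log10 q of at least 5 and 13.2% with regions within 300 bp joined. The median step (2286 bp) was 1573, 3139, 2279 and 2259 bp with the changed steps and run lengths, 2320 bp with −log10 q of at least 5 and 2169 to 2303 bp without 1 library each. Counts of clustered regions whose ranks do not overlap between stages (2489) were 541, 5480, 4643 and 1354 with the changed steps and run lengths, where the number of members changes, and 3240 to 7040 without 1 library each, where fewer ranks have to be parted. As shares of the clustered regions, the first 4 were 54.5%, 53.8%, 52.9% and 54.6%, against 53.7% of all shared regions. Without globular replicate 1 the share was 82.7% against 83.5%, and without globular replicate 2 it was 87.5% against 87.4%. It was 67.5% against 67.5% without heart replicate 1 and 67.3% against 67.9% without heart replicate 2. The clustered regions' higher fold held in all 14 alternatives (53.4% to 54.7% of pairs, mean over libraries). Its stage difference (0.376 points) was -0.403 with steps up to 2500 bp, 1.03 with steps up to 10000 bp, -0.0429 with runs of 3 or more, 1.56 with runs of 5 or more and -0.687 to 1.20 without 1 library each, negative without globular replicate 2. The mean share of variance between clusters (4.56%) was 6.76% in the inner part of the chromosomes, 2.98% with runs of 5 or more and 3.29% without globular replicate 1. The ratio of regions of other classes near clustered and other shared regions was 1.00 within 5000 bp and 0.872 over cluster spans. With the replicate number as a replicate block the stage difference was 0.376 points (p = 1, exact sign permutation of 2 pairs). The labels tie no numbers across stages, and over 27095 regions the rank difference of replicates 1 and 2 at 1 stage was uncorrelated with that at the other (r = -0.00075). The causes of these changes were not tested, beyond what each setting changes by construction. Chosen after seeing the data were all settings for the spacing and the likeness of members, the changed steps, run lengths, 80% overlap and −log10 q for the stage difference and the non-overlap counts, and the omission of single libraries for the strength and the non-overlap counts.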

Other observations

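Most neighbouring clusters were more than 20 kb from each other, though their spacing was not compared with an even one. Neighbouring clusters on a chromosome had a median gap of 276 kb between them, and 62 of 941 such gaps were 20 kb or less, the shortest being 4514 bp. The largest cluster with no further shared region in its 100 kb lay on chromosome 2 from 38390403 to 38407915 and held 8 regions. On unplaced scaffolds, which the rule's chromosomes leave out, 40 of 175 shared regions formed 8 runs of 4 or more.

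Some shared sites, in clusters and elsewhere, were strong in 1 library only. After the values had been seen, shared regions were counted that ranked at 90 or more in a library and below 50 in the other 3. In globular replicate 1 there were 452 of these, 68 of them in 65 clusters (1.46% of the clustered and 1.71% of the other shared regions). The clustered share was thus near that of the other shared regions. In globular replicate 2 and in both heart libraries there was none, clustered or not. Of the 68, 36 stood at an end of their cluster, as did 1922 of all 4653 clustered regions. Whether these sites favour cluster ends was not tested. The last region of the longest chromosome 20 cluster and the eighth of the chromosome 11 cluster, described above, are of this kind. In the globular group the values of these sites therefore rest on 1 library.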
